A study of Mus musculus with 28 samples.

Results

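Immediate early genes were followed in mouse peripheral nerve from the embryo to the young adult. The genes were Fos, Fosb, Junb, Egr1, Ier2, Atf3, Nr4a1, Dusp1, Btg2 and Zfp36, a list of 10 symbols drawn up with earlier results of these data known, and all 10 were found among the 41605 genes of the count table. All 10 also passed the filter on low counts, as did 17700 genes in all. The measurement was bulk poly-A RNA sequencing of nerves of C57BL/6J mice at 7 stages, 4 libraries each, which makes 28. Labels gave these as embryonic day (E) 13 and E17 and postnatal day (P) 1, P5, P14, P24 and P60. No stage carried a treatment or a genetic change.

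The E13 group was of another make than the rest. Each E13 library held various nerves, distal to the dorsal root ganglia, pooled from 2 embryos, although its label reads sciatic nerve, and the removal of the outer nerve layers was described for the later stages alone. Each E17 library pooled the sciatic nerves of 2 embryos, and each postnatal library came from 1 mouse. The study describes both sexes at every stage, but the labels do not give the sex of a library, so it was not a term of any test. Because stage, dissection and, at E13, the kind of nerve change together, they cannot be told apart in a comparison with E13.

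Immediate early genes are switched on within minutes of a stimulus without new protein synthesis. Growth factors, calcium, cyclic AMP and stress reach them through kinases that act on transcription factors already bound at their promoters, such as CREB and serum response factor. Several of the products are transcription factors themselves, and others shut the response down by removing phosphate from kinases or by destroying short-lived messenger RNAs. In peripheral nerve the family is best known from injury, where Schwann cells (SCs) and neurons induce Atf3 and Jun, and from tissue dissociation, which induces Fos, Junb, Egr1 and Ier2 in many cell types. The nerves here were uninjured, and RNA was taken from frozen tissue. Before freezing they were dissected into ice-cold PBS and, from E17 on, stripped of their outer layers. The part of this handling in the levels below was not tested.

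Total counts were 13899895 to 37662780 per library, and 18808 to 22276 genes had at least 1 count. The SC markers Sox10, S100b, Mbp, Cdh19 and Erbb3 had counts at every stage, and Sox10 was at 34.1 to 170 CPM (counts divided by library size after TMM scaling) in the E13 libraries and at 332 to 502 CPM at P60. The deviation from the stage mean followed the GC content of the transcript to a differing degree, and 3 libraries had the steepest slopes, with -0.93 log2 per 10 percentage points of GC in E13 replicate 1, 0.73 in E13 replicate 4 and -0.43 in P1 replicate 1. The other 25 had slopes of -0.16 to 0.20, and in some of them the trend also took a large share of the variance (52.1% in P1 replicate 4, against 56.2% in E13 replicate 4). Junb and Ier2 have GC-rich transcripts (62.6% and 60.9% GC). The correlations and some of the calls below are also given with the trend removed in all libraries or without the 3. Other values are over all libraries unless stated.

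The promoters of 6 members that changed between stages and had a sequence are shown first, because the known inputs of the family act there. RefSeq (GRCm38.p6) gave a promoter window for 8 of the 10 members. Each sequence is the 250 bases before the annotated start, 5′ to 3′ on the strand of the gene. In the first 5, capitals mark the cAMP response element TGACGTCA, which CREB and ATF proteins bind, or its half-site, TGACG or CGTCA on the other strand. In Zfp36, capitals mark a CArG box, the site of serum response factor.

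Nr4a1 (chr15:101266596-101266845, plus strand): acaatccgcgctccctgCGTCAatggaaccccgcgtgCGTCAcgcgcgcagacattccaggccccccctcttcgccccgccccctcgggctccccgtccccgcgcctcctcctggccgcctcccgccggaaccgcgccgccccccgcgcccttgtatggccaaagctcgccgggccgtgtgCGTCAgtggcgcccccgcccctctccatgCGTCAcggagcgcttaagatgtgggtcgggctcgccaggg
Atf3 (chr1:191183334-191183583, minus strand): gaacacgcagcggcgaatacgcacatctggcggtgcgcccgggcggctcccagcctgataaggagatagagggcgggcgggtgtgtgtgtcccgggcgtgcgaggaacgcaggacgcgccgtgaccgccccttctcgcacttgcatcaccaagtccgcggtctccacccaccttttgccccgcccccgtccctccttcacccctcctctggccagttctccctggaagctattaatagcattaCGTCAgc
Junb (chr8:84978749-84978998, minus strand): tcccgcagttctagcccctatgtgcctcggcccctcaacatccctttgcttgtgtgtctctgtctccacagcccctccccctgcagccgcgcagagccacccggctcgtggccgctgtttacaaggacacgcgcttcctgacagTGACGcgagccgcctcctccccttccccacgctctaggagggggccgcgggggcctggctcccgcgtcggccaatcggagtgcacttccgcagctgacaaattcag
Dusp1 (chr17:26508473-26508722, minus strand): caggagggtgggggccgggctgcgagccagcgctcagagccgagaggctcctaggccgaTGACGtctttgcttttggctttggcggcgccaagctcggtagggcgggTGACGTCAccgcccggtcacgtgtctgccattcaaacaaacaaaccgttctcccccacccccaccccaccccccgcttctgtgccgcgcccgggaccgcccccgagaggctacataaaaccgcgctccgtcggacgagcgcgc
Btg2 (chr1:134079156-134079405, minus strand): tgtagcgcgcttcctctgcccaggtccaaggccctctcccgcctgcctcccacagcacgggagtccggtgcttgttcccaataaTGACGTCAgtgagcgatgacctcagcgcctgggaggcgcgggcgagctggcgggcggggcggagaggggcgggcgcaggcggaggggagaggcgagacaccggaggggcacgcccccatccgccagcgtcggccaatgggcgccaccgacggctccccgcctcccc
Zfp36 (chr7:28379229-28379478, minus strand): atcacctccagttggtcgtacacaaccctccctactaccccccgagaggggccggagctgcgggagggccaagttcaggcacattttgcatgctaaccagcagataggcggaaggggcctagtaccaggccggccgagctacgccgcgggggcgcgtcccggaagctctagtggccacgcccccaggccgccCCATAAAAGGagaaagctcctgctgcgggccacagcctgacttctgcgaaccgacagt

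The cAMP half-site was found in the windows of 7 of the 8 members, against 17.8% of all 32851 promoter windows searched on both strands. Nr4a1 held 4 copies, the most among the members. The whole element TGACGTCA, which contains the half-site on both strands, was found in Dusp1 and Btg2 and in 1.55% of all windows. Within these 250 bases a CArG box was found in Zfp36 alone among the 8, and in 1.47% of all windows. Egr1 and Ier2 had no window, and sites further upstream were not searched in any gene. A match is a run of letters and no measure of binding.

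Per kilobase of exon, which allows genes to be compared, the members covered a wide range and Nr4a1 had the highest mean at every stage. At E13 Nr4a1 and Btg2 were level (8.88 and 8.85 CPM per kb, SD 3.83 and 1.28, n = 4). Nr4a1 encodes an orphan nuclear receptor. Its level was 8.88 CPM per kb at E13, 60.9 at E17 and 48.9 at P60, in the last case above 94.7% of the coding genes tested. Atf3 held the second place from E17 on, with 45.4 CPM per kb at E17 and 13.8 at P60. Fosb was the lowest of the 10 at every stage, at 0.135 to 0.293 CPM per kb, while the median coding gene lay between 4.27 and 4.39. At P60 Fos, Egr1, Ier2 and Junb lay between 2.01 and 3.20 CPM per kb, below the median coding gene. In a bulk sample a lower level from fewer cells of a type and one from less RNA per cell cannot be told apart.

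**Figure D1:**
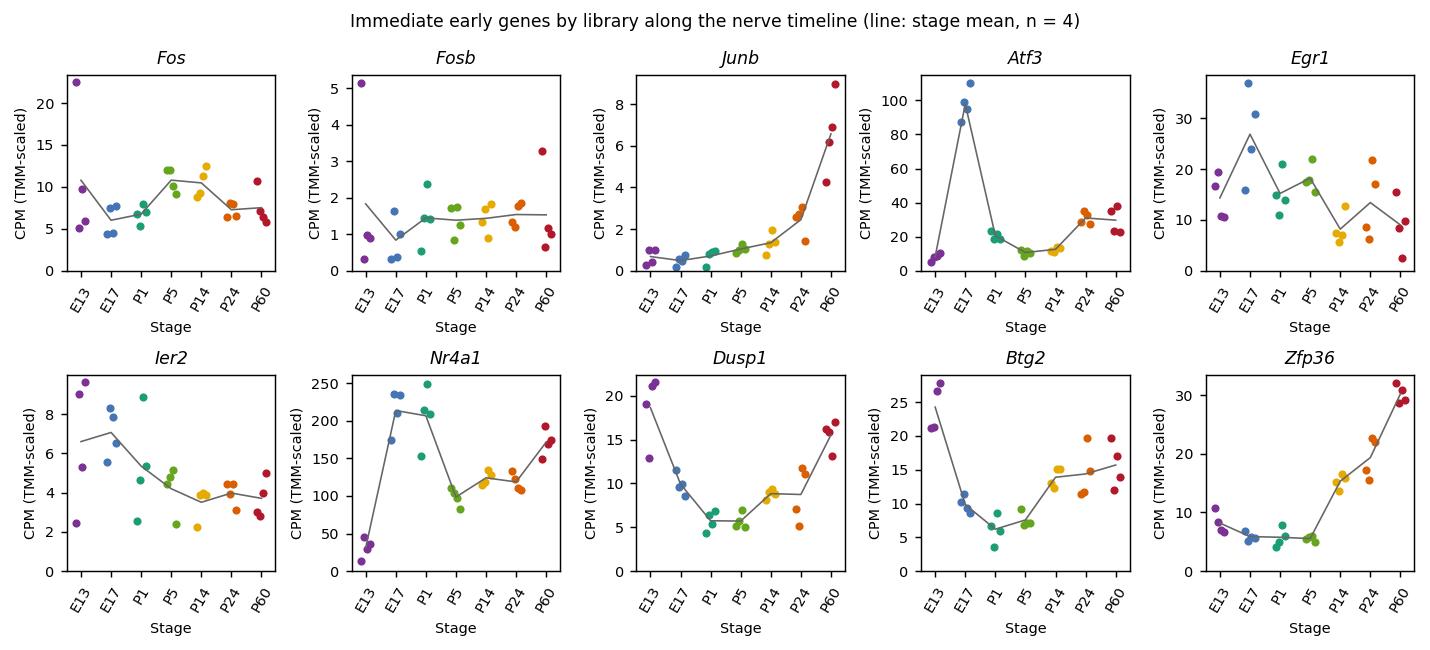
TMM-scaled CPM of the 10 genes (y axes, linear, each from 0) in every library at the 7 stages (x axis), with points for libraries and a line through the stage means (n = 4). Atf3 peaks at E17, Nr4a1 is lowest at E13, Junb and Zfp36 are highest at P60, and Fos and Fosb show single high libraries at E13.

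The AP-1 transcription factors bind DNA as pairs of leucine-zipper proteins. Between adjacent stages Atf3 had the largest single step among the 10 genes. It is a stress-induced factor and a classic marker of injured neurons and SCs. Its libraries gave 5.46, 8.399, 8.77 and 10.5 CPM at E13 and 87.6, 99.1, 94.8 and 110 CPM at E17. The E17 libraries were all far above those of E13, and above those of every other stage. The level then fell to 18.7 to 23.3 CPM at P1 and 8.54 to 12.3 CPM at P5, stayed at 11.1 to 14.1 CPM at P14, and was 27.5 to 34.9 CPM at P24 and 22.6 to 38.3 CPM at P60.

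These steps were tested in 1 quasi-likelihood fit over all genes (edgeR), in which a gene was called when its adjusted p lay under 0.05 and it changed at least 2-fold. Atf3 rose from E13 to E17 by 3.57 ± 0.19 log2 (SE, n = 4 against 4; edgeR adjusted p = 5.94e-15), or 11.9-fold. It fell by 2.25 ± 0.18 log2 from E17 to P1 (edgeR adjusted p = 8.67e-11). From P1 to P5 the difference was -0.94 ± 0.17 log2, under the fold minimum, with an edgeR adjusted p of 0.000242, and it passed that minimum without P5 replicate 1 (-1.01 log2). From P14 to P24 Atf3 rose again, by 1.29 ± 0.17 log2 (edgeR adjusted p = 1.98e-05), and the adult level differed from the P24 level by -0.06 ± 0.17 log2. The 3 calls were kept in each of the alternatives run, with leaving out any 1 library of the compared stages among them.

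Junb, a partner of Fos proteins, was low until P14 and highest in the adult. Its 4 libraries gave 0.165 to 0.754 CPM at E17 and 0.182 to 0.962 CPM at P1. They gave 1.43 to 3.06 CPM at P24 and 4.24, 6.17, 6.90 and 8.98 CPM at P60. The P60 libraries did not overlap with those of any other stage. Junb rose from P24 to P60 by 1.43 ± 0.39 log2 (edgeR adjusted p = 0.0114) and was higher at P60 than at P1 by 3.19 ± 0.42 log2 (edgeR adjusted p = 2.56e-07), 9.15-fold. The step from P24 lost its call without P24 replicate 4 (1.23 log2, edgeR adjusted p = 0.0518) or P60 replicate 4 (1.24 log2, edgeR adjusted p = 0.0527).

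Junb rested on 1001 counts in all, 3 to 143 per library. It shares 173 of its 2301 exon bases with Prdx2, a peroxiredoxin gene on the opposite strand, and whether the counting used strand is not stated in the sources used here. Prdx2 was far higher, at 217 CPM on average at P1, and moved the other way, with a change of -1.14 ± 0.20 log2 from P1 to P60 (edgeR adjusted p = 1.57e-05). How much of the Junb count comes from the shared bases was not tested.

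Fos and Fosb, the most widely used markers of a recent stimulus, were not called in any comparison by the edgeR fit over all libraries. Fos gave 22.5, 5.09, 9.71 and 5.89 CPM in the 4 E13 libraries and 5.84 to 10.7 CPM at P60. Fosb gave 5.13, 0.323, 0.975 and 0.895 CPM at E13 and 0.653 to 3.29 CPM at P60. For both genes a single library, E13 replicate 1, stood above all others of the series, and it is also the library with the steepest GC slope. The P60 against P1 difference was 0.15 ± 0.32 log2 for Fos and 0.07 ± 0.61 log2 for Fosb, and the large error of Fosb leaves even a change past the fold minimum within 2 SE. From E13 to E17 Fos had -0.85 ± 0.31 log2 with an edgeR adjusted p of 0.0206, short of the fold minimum, and this passed the minimum without E13 replicate 2, E13 replicate 4 or E17 replicate 4 (-1.11, -1.07 and -1.001 log2) or with library size only (-1.11 log2). Fosb had -1.17 ± 0.63 log2 in that step and was called without E13 replicate 2 or E17 replicate 2 (-1.54 and -1.74 log2). At P1 against E17 Fosb was called higher by limma-voom with quality weights (1.17 log2, adjusted p = 0.0189). Neither gene met the rule for a change along the timeline, which asks for an adjusted p under 0.05 over all stage terms together and stage means at least 1 log2 unit apart. Fos missed it on the distance between stages (0.87 log2, edgeR adjusted p = 0.0434), and met it without E17 replicate 4 (1.01 log2, edgeR adjusted p = 0.0387). The other 8 members met it, as did 70.3% of all genes.

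Egr1, a zinc-finger factor induced by growth factors, was highest at E17, with 15.8, 36.9, 23.98 and 30.8 CPM. Its difference from E13, 0.90 ± 0.38 log2 (edgeR adjusted p = 0.0424), passed the fold minimum without E13 replicate 2 (1.06 log2) or E17 replicate 1 (1.09 log2). Its libraries gave 15.6 to 22.1 CPM at P5 and 7.46, 5.59, 7.07 and 12.6 CPM at P14, so that these neighbours did not overlap. Egr1 fell by 1.14 ± 0.39 log2 from P5 to P14 (edgeR adjusted p = 0.0270). This was the weakest call among the members: it was lost with the GC trend removed (-1.14 log2, edgeR adjusted p = 0.0507) and without P5 replicate 3, P14 replicate 1, P14 replicate 2 or P14 replicate 3 (-1.04, -1.10, -1.002 and -1.08 log2, edgeR adjusted p of 0.0651 to 0.0886). At P60 the libraries spread from 2.42 to 15.5 CPM, a 6.39-fold range and the widest of Egr1 at any stage.

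Ier2, a small nuclear protein, had 2.45 to 9.63 CPM at E13, 5.55 to 8.29 CPM at E17 and 2.83 to 5.02 CPM at P60. No neighbouring pair in the order of its stage means was free of overlap, and no pairwise comparison passed the test. It met the rule for the timeline with stage means 1.01 log2 apart (edgeR adjusted p = 0.0346), just past the minimum. That call was lost, with stage means 0.92 to 1.03 log2 apart, without any 1 of E13 replicates 2 and 4, E17 replicates 2, 3 and 4, P14 replicate 1 and P60 replicates 1 and 2, and without the 3 libraries that stood apart in GC.

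Nr4a1 had the steepest entry into the series after Atf3. The E13 libraries gave 13.4, 45.3, 29.9 and 36.0 CPM and the E17 libraries 175, 235, 211 and 235 CPM, without overlap. Nr4a1 rose by 2.78 ± 0.22 log2 (edgeR adjusted p = 2.97e-11), 6.87-fold. It was 154, 214, 249 and 209 CPM at P1 and 110, 104, 97.5 and 82.7 CPM at P5. Every P1 library lay above every P5 library, and the gene fell by 1.07 ± 0.21 log2 (edgeR adjusted p = 0.000539). The fall stayed short of the fold minimum without P1 replicate 3 (-0.97 log2) or P5 replicate 4 (-0.99 log2). From P24 (108 to 134 CPM) to P60 (149 to 194 CPM) the libraries again did not overlap, with a difference of 0.53 ± 0.21 log2 and an edgeR adjusted p of 0.0857.

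Counts over the 10 genes stood against changes throughout the transcriptome. From E13 to E17, 3 of 10 members were called (Atf3 and Nr4a1 higher, Btg2 lower), while 35.5% of all genes tested were. Without E13 replicate 2 the count was 7, with Fos, Fosb and Dusp1 lower and Egr1 higher in addition, while calls over all genes went from 6276 to 6498. In that step the SC markers Sox10 (117 to 326 CPM on average) and Erbb3 (221 to 853 CPM) rose, as did S100b, Mbp and Cdh19, and all 5 neuronal cell body markers fell, from a summed 325 to 615 CPM at E13 to 12.5 to 20.6 CPM at E17. All 6 macrophage markers (346 to 446 against 99.4 to 113 CPM in sum), all 5 red blood cell markers (661 to 6723 against 357 to 999 CPM) and the 3 granulocyte markers tested also fell, while 3 of 6 fibroblast markers (480 to 890 against 4937 to 6000 CPM), 2 of 4 perineurial, 2 of 5 endothelial and 1 of 4 adipocyte markers rose. Of 4 skeletal muscle markers tested 3 fell and 1 rose, and 1 of 5 pericyte and smooth muscle markers fell. Both cartilage markers tested also fell, of which Col2a1, together with Sox9, labels endoneurial cells in the study. Of 4 mast cell markers 3 were called higher, with overlapping libraries and E17 replicate 4 above the rest (Cpa3 at 27.6 CPM there and 0.233 to 4.91 CPM in the other E17 libraries). The adipocyte marker that rose was Fabp4 (0.753 to 63.3 CPM on average), while Adipoq, Plin1 and Cidec averaged 0 to 0.0527 CPM at both stages. The part of these shifts in the changes of Atf3 and Nr4a1 was not tested. At P1 against E17 the count called was 1 of the 10 members (11.7% of all genes), at P5 against P1 it was 1 (5.84%) and at P14 against P5 it was 2 (12.0%). Thereafter P24 differed from P14 in 1 member (2.65%) and P60 from P24 in 1 (5.96%). With 10 genes, 1 call more or less moves each of these shares across the background.

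Dusp1 and Btg2, which dampen the response, traced another shape, high at E13, low around birth and higher again in the adult. Dusp1 is a phosphatase that switches off MAP kinases. Its libraries gave 19.1, 12.8, 21.1 and 21.5 CPM at E13, 4.37 to 6.83 CPM at P1, 4.99 to 7.02 CPM at P5 and 16.2, 15.8, 13.2 and 16.95 CPM at P60. The adult level was back in the range of the E13 libraries and did not overlap with P1 or P5. From E13 to E17 the difference was -0.91 ± 0.20 log2 (edgeR adjusted p = 0.000348), past the fold minimum without E13 replicate 2 (-1.08 log2). Dusp1 was higher at P60 than at P1 by 1.43 ± 0.21 log2 (edgeR adjusted p = 1.06e-06), in smaller steps of 0.63 ± 0.21 log2 from P5 to P14 and 0.82 ± 0.20 log2 from P24 to P60 that had edgeR adjusted p of 0.0209 and 0.00568 but not the fold minimum.

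Btg2, an antiproliferative gene that promotes the shortening of poly-A tails, gave 21.2, 21.4, 26.7 and 27.8 CPM at E13 and 8.55 to 11.4 CPM at E17. It fell by 1.30 ± 0.20 log2 between these stages (edgeR adjusted p = 4.27e-06). Its lowest level was at P1, at 6.67, 3.62, 8.57 and 5.96 CPM. At P60 its libraries gave 12.0 to 19.7 CPM, none of them as low as any at P1, and the difference was 1.34 ± 0.21 log2 (edgeR adjusted p = 3.37e-06).

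Zfp36 encodes tristetraprolin, which binds AU-rich elements and triggers the decay of cytokine and immediate early transcripts. It had the most even libraries of the 10. They gave 5.50, 5.79, 6.03 and 4.88 CPM at P5, 15.2, 13.7, 16.6 and 15.9 CPM at P14, 17.2, 15.6, 22.7 and 22.0 CPM at P24 and 32.1, 28.7, 30.9 and 29.3 CPM at P60. The gene climbed after P5, and the adult libraries lay above all others. Zfp36 rose from P5 to P14 by 1.47 ± 0.17 log2 (edgeR adjusted p = 2.06e-07) and was higher at P60 than at P1 by 2.39 ± 0.17 log2 (edgeR adjusted p = 3.93e-12), 5.23-fold. The antisense gene Gm44710, which shares 125 of the 3470 exon bases of Zfp36, was at 3.21 CPM at P60 and 0.278 CPM at P1.

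**Figure D2:**
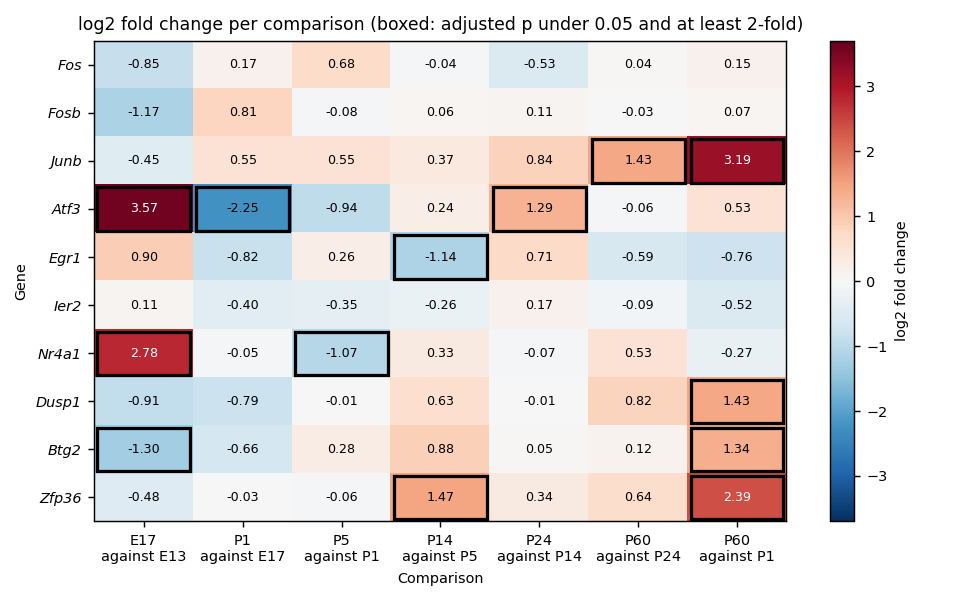
log2 fold change (colour and printed value) of each gene (rows) in the 7 comparisons (columns), with boxes around changes at an edgeR adjusted p under 0.05 and at least 2-fold. The 4 boxed values in the column for P60 against P1 are all rises, for Junb (3.19), Dusp1 (1.43), Btg2 (1.34) and Zfp36 (2.39).

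The adult nerve differed from the newborn nerve in 4 of the 10 genes, all higher, while 35.5% of all genes were called and 20.3% were called higher. The median over the 10 was 0.34 log2, against -0.02 over all genes. Atf3 was 0.53 ± 0.17 log2 higher at P60, short of the fold minimum (edgeR adjusted p = 0.00899). Fos, Fosb, Egr1, Ier2 and Nr4a1 had differences of -0.76 to 0.15 log2 that did not pass. Egr1 was called lower without P60 replicate 1 (-1.16 log2, edgeR adjusted p = 0.0197). With all libraries, limma-voom with quality weights also called Egr1 lower (-1.16 log2, limma-voom adjusted p = 0.0168). The same held at P60 against P24 (-1.21 log2, limma-voom adjusted p = 0.0388).

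A wider list of other immediate early genes moved in both directions over the same interval. Of its 43 genes 40 were tested, Fosl1, Egr4 and Ptgs2 being below the filter. Of the 40, 15 were higher and 6 lower at P60 than at P1 (52.5%, against 35.5% of all genes), with a median of 0.76 log2. Klf2, a flow-responsive endothelial factor, was higher by 3.35 ± 0.20 log2 (edgeR adjusted p = 7.04e-14) and Cebpd, a glucocorticoid- and cytokine-induced factor, by 3.08 ± 0.29 log2 (edgeR adjusted p = 4.74e-10). Egr3 was lower by 5.27 ± 0.26 log2, from 49.2 to 1.28 CPM (edgeR adjusted p = 9.73e-16), and Dusp4, a nuclear MAP kinase phosphatase, by 4.22 ± 0.19 log2, from 117 to 6.30 CPM (edgeR adjusted p = 1.22e-16).

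Egr2, the factor that drives myelination in SCs, rose by 4.24 ± 0.19 log2 from E13 to E17 and by 3.32 ± 0.17 log2 from E17 to P1, when it reached 270 CPM (edgeR adjusted p of 2.77e-16 and 6.53e-15). From E13 to E17, 10 of the 40 rose and 9 fell (47.5%, against 35.5% of all genes), and Egr3 (3.21 ± 0.22 log2) and Fosl2 (2.71 ± 0.13 log2) rose together with Atf3 and Nr4a1. From P5 to P14, 5 rose and 4 fell (22.5%, against 12.0% of all genes), and among the latter Dusp4 fell by 2.41 ± 0.17 log2 and Dusp6 by 1.20 ± 0.12 log2.

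**Figure D3:**
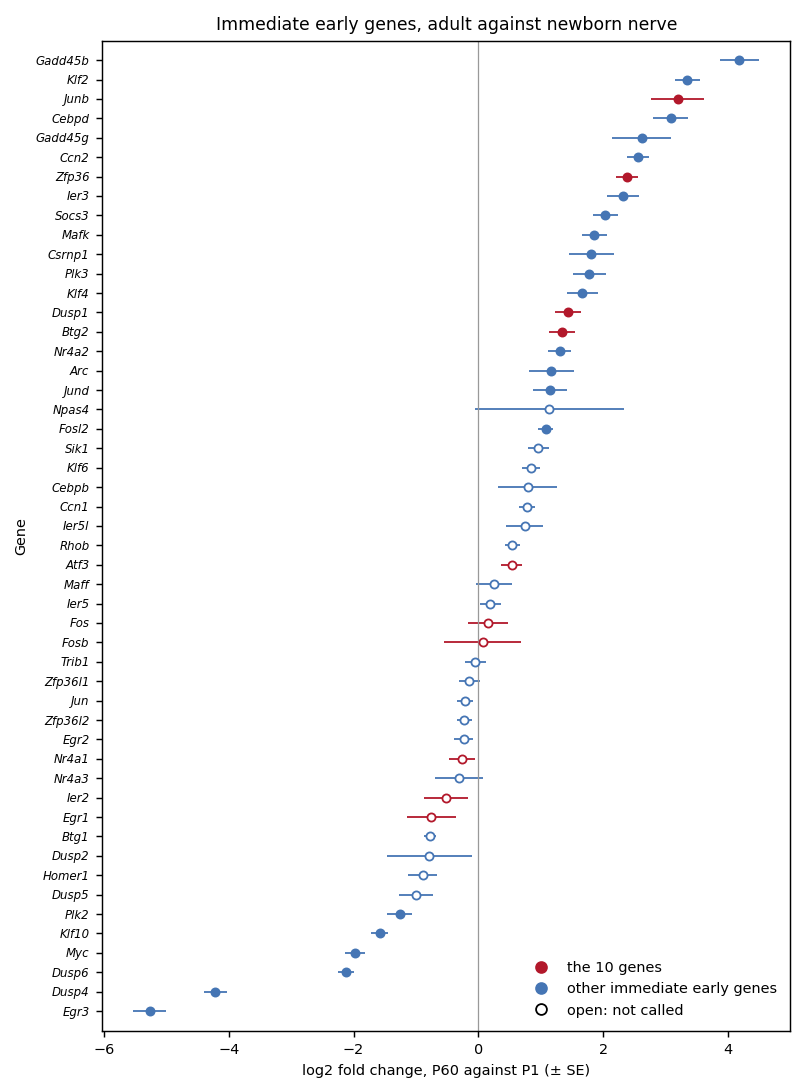
log2 fold change at P60 against P1 (x axis, ± SE) of the 10 genes (red) and the 40 other immediate early genes tested (blue), ordered by size, with open points where the gene was not called. The range runs from -5.27 for Egr3 upward, and Junb (3.19) and Zfp36 (2.39) lie near the upper end.

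Of 20 genes on a list of kinases and factors that act on these genes, from Srf and Creb1 to the MAP kinases, 4 were called at P60 against P1, against 35.5% of all genes. The count was 3 to 9 over the alternatives. Mapk3, which encodes ERK1, was higher by 1.98 ± 0.19 log2, at 924 against 234 CPM, and Mrtfb, a cofactor of serum response factor, by 1.07 ± 0.14 log2, while the ribosomal S6 kinase gene Rps6ka3 was lower by 1.28 ± 0.27 log2 (edgeR adjusted p of 6.07e-10, 1.85e-07 and 0.000209). The fourth, Rps6ka2, had -1.01 ± 0.15 log2, and its call was lost in several alternatives that moved it to just under the fold minimum, such as DESeq2 size factors (-0.97 log2) or leaving out P1 replicate 3 or 4 or P60 replicate 1. The call of Mrtfb was lost with library size only (0.87 log2) and with no filter on low counts (0.99 log2). Srf, Elk1 and Creb1 were among those not called.

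Glucocorticoid target genes were higher in the adult. All 9 on the list were called higher at P60 than at P1 in every alternative run, against 20.3% of all genes, with a median of 2.14 log2. Tsc22d3, which encodes the glucocorticoid-induced leucine zipper, went from 17.9 to 822 CPM (5.52 ± 0.24 log2, edgeR adjusted p = 1.06e-16), and Per1, which glucocorticoids and the clock both induce, from 30.1 to 182 CPM (2.59 ± 0.27 log2, edgeR adjusted p = 4.78e-09). The same list had 6 of 9 genes higher from P5 to P14, the step in which Zfp36 rose (12.0% of all genes were called in either direction), and 7 of 9 higher from P24 to P60, the step in which Junb rose (5.96%). At P24 against P14 none was called (2.65% of all genes), although 6 of 20 alternatives gave 1 or 2, with 2 without P24 replicate 4. At P5 against P1 none was called (5.84%), and 3 were with no fold minimum. In the 2 earlier steps the list went both ways, with 2 higher and 3 lower from E13 to E17 (35.5% of all genes called) and again 2 higher and 3 lower from E17 to P1 (11.7%). Dusp1 and Zfp36 are also known as glucocorticoid-induced genes. The list was drawn up with results of these libraries known, and the part of hormones or time of day in the rise of the members was not tested.

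Other cell types also moved between these ages. At P60 against P1 all 4 perineurial markers were higher, from a summed 150 to 228 CPM to 994 to 1400 CPM, as were all 4 adipocyte markers (10.8 to 14.5 against 102 to 280 CPM), 4 of 5 pericyte and smooth muscle markers (170 to 184 against 545 to 599 CPM) and 3 of 5 endothelial markers (150 to 173 against 376 to 411 CPM). Cidec, an adipocyte marker, was at 0 in the P1 libraries, where Fabp4 averaged 12.4 CPM and Adipoq and Plin1 averaged 0.120 and 0.0169 CPM. Macrophage markers had 1 of 6 higher and 1 lower (105 to 127 against 140 to 194 CPM), and granulocyte markers were at 0 to 0.999 CPM in sum at both ages. Of the other lists, 3 of 4 mast cell markers, 2 of 5 neuronal cell body markers and 1 of 4 skeletal muscle markers tested were higher, 4 of 5 red blood cell markers and both cartilage markers tested were lower, and the fibroblast and SC lists each had 3 of 6 higher and 1 lower. From P5 to P14, 3 of 4 perineurial markers (173 to 219 against 456 to 555 CPM), 2 of 4 adipocyte and 2 of 6 fibroblast markers were higher, the SC, endothelial, pericyte, skeletal muscle and neuronal lists had 1 higher each, and both cartilage markers and 1 of 6 macrophage markers were lower. From P24 to P60, 4 of 5 red blood cell markers, both cartilage markers, 2 of 3 granulocyte markers, 1 macrophage and 1 fibroblast marker were lower, and 1 mast cell and 1 neuronal marker were higher. Of the cartilage list, Col2a1 also labels endoneurial cells in the study, and it averaged 45.6 CPM at P1 and 3.54 CPM at P60. Acan averaged 1.00 CPM at P1 and 0 at P60. The part of these cells in the changes of Junb, Zfp36, Dusp1 and Btg2 was not tested.

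Heat shock genes, which mark another acute stress, went both ways between P1 and P60. From P5 to P14, 3 of 10 were higher (Hspa1a, Hspa1b and Hspb1) and none lower (30%, against 12.0% of all genes). At P60 against P1 the same 3 were higher and 2 were lower, against 35.5% of all genes called. Hspb1 was higher by 4.32 ± 0.44 log2 (edgeR adjusted p = 2.88e-09), and the mitochondrial chaperonin genes Hspd1 and Hspe1 were lower by 1.26 ± 0.17 and 1.05 ± 0.10 log2 (edgeR adjusted p of 3.56e-07 and 1.35e-09), the last falling short of the fold minimum without P1 replicate 1 (-0.97 log2). Of 9 genes of the injury programme of repair SCs, 1 was higher and 3 lower in the adult, against the same 35.5%. From E13 to E17, the step in which Atf3 rose, 2 of the 9 were higher and 3 lower (Gap43, Olig1 and Shh), again against 35.5% of all genes, with a median of -0.0029 log2. Artn, a GDNF-family ligand, rose by 2.26 ± 0.38 log2 and Ngfr, the p75 neurotrophin receptor, by 2.05 ± 0.15 log2, to 544 CPM, while Gap43, a growth cone protein, was lower by 5.33 ± 0.23 log2 (edgeR adjusted p of 1.03e-05, 5.69e-12 and 1.64e-16). At P1 against E17, 4 of the 9 were lower and none higher (44.4%, against 11.7% of all genes). In that step all 5 red blood cell and all 4 skeletal muscle markers tested were also lower. So were 2 of 5 neuronal cell body, 2 of 4 mast cell, 1 of 5 endothelial, 1 of 4 perineurial and 1 of 4 adipocyte markers. Of 6 SC markers 2 were higher. By P1 Artn had fallen by 4.46 ± 0.43 log2 and Ngfr by 1.27 ± 0.15 log2 (edgeR adjusted p of 5.12e-09 and 1.61e-07), in the same step as Atf3. Whether these genes and Atf3 have a shared source was not tested.

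Because these genes answer to handling within minutes, the spread between libraries of 1 stage was set beside the rest of the transcriptome. The within-stage SD of log2 CPM had a median of 0.395 over the 10 genes and 0.318 over all genes tested. Fosb had an SD of 0.870, higher than 97.7% of genes, Egr1 0.637 (86.8%), Junb 0.625 (85.8%) and Ier2 0.531 (78.4%). Zfp36 (0.232), Atf3 (0.254), Dusp1 (0.297) and Btg2 (0.299) were below the median gene. Fosb and Junb had as few as 6 and 3 counts in a library.

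The within-stage co-variation of the members, taken as the mean of the 45 pairwise correlations of deviations from the stage mean, was 0.126 over the 28 libraries, and 28 of the 45 were positive. It was 0.139 with 33 positive once the GC trend was removed and 0.182 with 35 positive without the 3 libraries. The mean was 0.0798 without P1 replicate 3, 0.208 without E13 replicate 1 and 0.246 without the E13 libraries. Libraries share depth and base composition, so these values are descriptions. Fos and Fosb, whose deviations had a correlation of 0.76, kept it with the GC trend removed (0.83) and without the 3 libraries that stood apart in GC (0.69), and both were highest in the same library at 4 of 7 stages. Fos and Egr1 had 0.33 (0.53 with the GC trend removed and 0.36 without the 3 libraries).

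Junb, Ier2 and Nr4a1 also deviated together. Junb and Ier2 had a correlation of 0.77, Ier2 and Nr4a1 0.81 and Junb and Nr4a1 0.69, and these became 0.41, 0.38 and 0.26 with the GC trend removed and 0.62, 0.65 and 0.66 without the 3 libraries. Fos and Nr4a1 had the most negative correlation, -0.58, which became -0.28 with the trend removed and 0.03 without the 3 libraries. Nr4a1 and Dusp1 went from -0.19 to -0.71 with the trend removed and -0.51 without the 3 libraries.

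**Figure D4:**
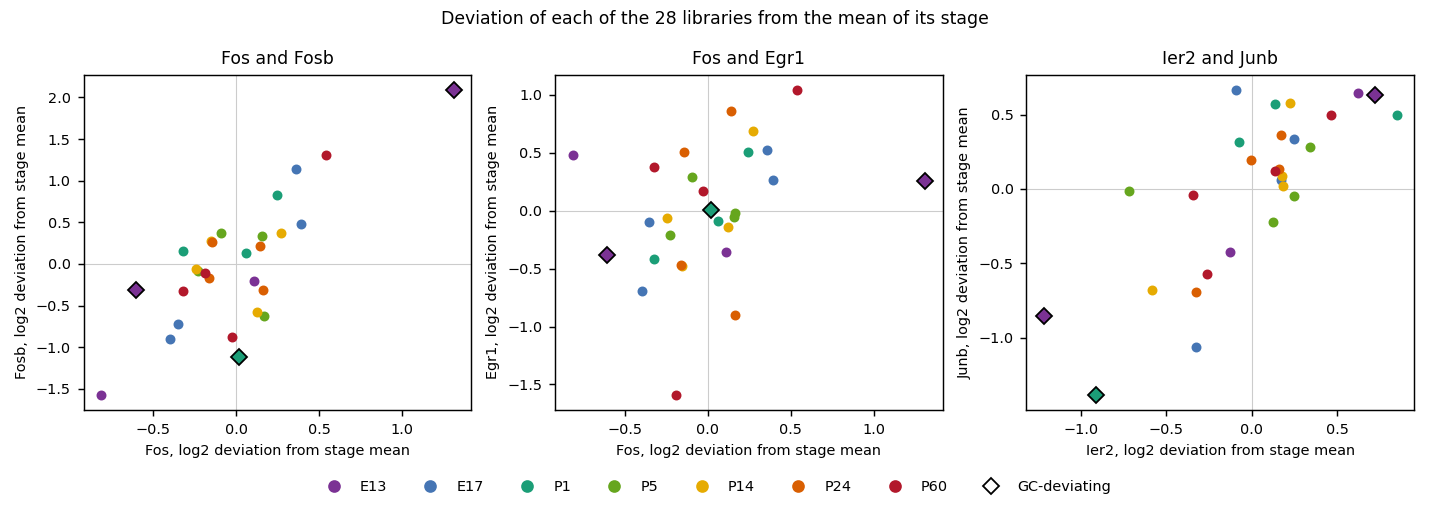
Deviation of each of the 28 libraries from its stage mean (log2 CPM), for Fos and Fosb (left), Fos and Egr1 (middle) and Ier2 and Junb (right), coloured by stage, with diamonds for the 3 libraries that stood apart in GC. E13 replicate 1 lies at the upper right for Fos and Fosb and at the lower left for Ier2 and Junb.

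The genes most like the 10 were sought among the 11297 genes that averaged 5 CPM or more, by the correlation with the mean scaled level of the members. Over the levels of the 28 libraries these were Pygl (0.75), Tgfb3 (0.73), Rasa4 (0.73), Ildr2 (0.72), Plcb3 (0.72), Rbpms (0.72), Chst1 (0.70), Npr2 (0.70), Socs3 (0.70) and Adcy4 (0.70). Over the deviations from the stage means they were Hoxa7 (0.75), Ifi27l2a (0.71), Thy1 (0.71), Foxd1 (0.71), Clec3b (0.69), Tnxb (0.66), Itga3 (0.66), Ecm1 (0.65), Map3k14 (0.65) and Pla2g15 (0.65). With the GC trend removed these 10 correlations lay between 0.35 and 0.71, lowest for Ifi27l2a (0.35), Pla2g15 (0.40) and Thy1 (0.48) and highest for Foxd1 (0.71). The lists share no gene. Clec3b is also on the fibroblast marker list, whose summed level ran from 3022 to 5527 CPM within P1 and from 2979 to 5764 CPM within P24.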

How the data were processed

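RNA of mouse peripheral nerve at 7 stages, 4 libraries each, had been sequenced from stranded poly-A libraries. The authors aligned reads with STAR (2.6.1c per the submitters' processing notes, which name GRCm38.p5; the methods print a human build name) and counted them per gene with featureCounts. The deposited values are raw counts per gene, not normalized. Whether counting used strand, and how it treated reads with several alignments, is not given in the sources used here. Identifiers were matched to GENCODE M21 (GRCm38; 41519 of 41605, 99.79%), and 4 older list symbols through RefSeq synonyms.

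Genes were filtered by filterByExpr with stages as groups (17700 kept), scaled by TMM and fitted over all 28 libraries with edgeR 4.0.16 (R 4.3.3; glmQLFit with robust estimation, glmQLFTest, stage as the only term). The 6 adjacent pairs of stages, P60 against P1 and all stage terms together were tested, with Benjamini-Hochberg adjustment over all genes tested. A call needed an adjusted p under 0.05 and a fold change of at least 2. SE is the log2 fold change over the square root of F. log2 CPM used a prior count of 2. GC trends were lowess fits over 10028 coding genes. Depth was 13899895 to 37662780 counts per library. Replicates differed beyond counting error (chi-square per degree of freedom 4.35 to 226 over 42 pairs), and each library counted as 1 sample, since the study describes independent samples.

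The 10 members and all gene lists were chosen with earlier results of these data known. Named genes were the 10, at most 4 called genes of a list per comparison with the largest changes that averaged 10 CPM or more at the higher of both stages, and the 10 genes of highest likeness by each measure. Prdx2 and Gm44710 are named because they overlap members. Srf, Elk1, Creb1, Rps6ka2, Olig1, Shh, Hspa1a, Hspa1b, single cell type markers and genes at 0 or below the filter are examples chosen after their values were seen. Alternatives were other scalings, filters and tests (DESeq2 1.42.0, limma 3.58.1), fewer stages, a block for replicate number, dropping the fold minimum, GC trend removal and each library left out. Leaving out the 3 libraries that stood apart in GC was added after the data were seen. On simulated counts (P1 against E17, 15722 genes) the edgeR step recovered 199 of 200 changed genes with 1 false call. These genes were changed by 1.5 log2 (99 recovered) or 2.5 log2 (100 recovered). Recovery of smaller differences, such as those called for Nr4a1 from P1 to P5 and Egr1 from P5 to P14, was not tested. The values of 1 gene of the marker lists are not reported here.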

Additional observations from a re-analysis of the deposited data

Results flagged for a closer look

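In 3 of the 70 groups of 4 libraries (10 genes at 7 stages) a single library stood apart from the other three, by a gap to its nearest neighbour that was larger, as a share of the range of the group, than Dixon's 95% critical value, while chance alone gives about 1 in 20. Fosb at E13 had 5.13 CPM in replicate 1 and 0.323 to 0.975 CPM in the others. Ier2 at P14 had 2.25 CPM in replicate 1 and 3.87 to 4.00 CPM in the others. Btg2 at P5 had 9.21 CPM in replicate 1 and 6.82 to 7.15 CPM in the others. E13 replicate 1 is also the library with the steepest GC slope (-0.93 log2 per 10 percentage points), and its part in the Fosb value was not tested.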

How the results depend on the processing

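Of the 13 calls of single members in the 7 comparisons, 10 were kept in every alternative, and those of Nr4a1 from P1 to P5, Egr1 from P5 to P14 and Junb from P24 to P60 were lost in some. No count or difference changed direction. With library size only, 5 members were called from E13 to E17 and 2 from P1 to P5 (6331 and 1102 of all genes). With limma-voom and quality weights, the counts were 5 from E13 to E17, 2 from E17 to P1 and 2 from P24 to P60 (6971, 2577 and 1317 of all genes). With no fold minimum they were 7 from E13 to E17, 3 from E17 to P1, 2 from P1 to P5, 4 from P5 to P14 and 3 from P24 to P60 (11014, 5225, 3114, 5233 and 2845 of all genes), more by construction, and of the other immediate early genes 30 in place of 19 were called from E13 to E17 and 19 in place of 9 from P5 to P14. Signalling genes went from 4 to 9 and heat shock genes from 5 to 8 at P60 against P1. With the compared stages alone in the fit, 2 in place of 4 injury genes were called at P60 against P1. With the GC trend removed, 1 was called from P5 to P14 (2233 of all genes). Leaving out 1 library gave 3 to 7 calls from E13 to E17 (7 without E13 replicate 2), 1 from E17 to P1, 0 to 2 from P1 to P5 (0 without P1 replicate 3 or P5 replicate 4, 2 without P5 replicate 1), 1 to 2 for P14 against P5, 1 for P24 against P14, 0 to 1 for P60 against P24, 4 to 5 for P60 against P1 and 7 to 8 along the timeline. It gave 0.310 to 0.404 for the median within-stage SD and 0.0798 to 0.208 for the mean pairwise correlation. The timeline call of Ier2 was lost without any of E13 replicates 2 and 4, E17 replicates 2, 3 and 4, P14 replicate 1 and P60 replicates 1 and 2, and without the 3 libraries that stood apart in GC (stage means 0.92 to 1.03 log2 apart). The adjusted p was 0.0505 to 0.0759 in the single-library cases, and the difference was under the minimum without E17 replicate 2, E17 replicate 3, P14 replicate 1 or the 3 libraries together. The replicate numbers did not meet the criterion for pairing the libraries: same-numbered deviations had correlations of -0.06 to 0.29, and no comparison had all 4 above 0.1. As a hint from the data that the numbers may share something, 17 of 28 libraries correlated best with their own number. The replicate block gave the same counts of members as the fit without it: 3, 1, 1, 2, 1 and 1 in the adjacent steps, 4 for P60 against P1 and 8 along the timeline. Depth limits Fosb and Junb, with as few as 6 and 3 counts in a library.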
